A study of Melitaea cinxia with 174 samples.

Results

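The 200 genes with the smallest differences between individuals were examined in the thorax of the Glanville fritillary butterfly (Melitaea cinxia). They were chosen by their spread: on log2(normalized count + 1), 2029 of 16667 gene models had a mean of 5 or more over all 174 butterflies, the 100 genes of highest mean normalized count were set aside, and the 200 with the smallest standard deviation (SD) over the individuals were kept from the remaining 1929. The stable genes thus made up 10.4% of the genes that could be chosen. Population and sex had no part in the choice, but a small total SD leaves room only for small differences between groups, so the counts of differing genes below are descriptions beside the share over all genes tested.

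The butterflies came from 4 regional populations. ÅL (the Åland Islands, 23 females and 26 males) and UP (Uppland, 11 females and 9 males) represent fragmented landscapes, and SA (Saaremaa, 28 females and 35 males) and ÖL (Öland, 15 females and 27 males) represent continuous ones. All were collected in the field as larvae and reared under the same conditions to adults, whose thorax RNA gave 1 polyA-anchored library each. The study set aside a few outliers found from genotypes, among them individuals of UP and ÖL that seemed to have exchanged labels. Which ones they were is not given in the sources used here, so every individual was kept under its label in all means, SDs and tests. Landscape type is shared by only 2 populations each, so it cannot be told apart from the history of those populations. The p-values and standard errors for landscape type below treat butterflies, not landscapes, as replicates. They therefore describe differences between these sampled populations and do not measure how much landscapes of the same type vary.

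Genes with even transcript levels between animals are sought as references for measurements of other genes, and basic cell functions are common places to look for them. The small GTPase Rac is a switch that organises the actin skeleton, and the Wnt and hedgehog pathways pattern tissues in insects and vertebrates. In the absence of a Wnt signal, cells destroy beta-catenin, and in the absence of hedgehog, kinases and a ubiquitin ligase trim the transcription factor of that pathway. The thorax holds the flight muscle, which makes up most of its mass.

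The total count per individual ranged from 442717 to 7742394, with a median of 2677838. Troponin C genes, which are muscle genes, had mean log2 values of 8.42 and 9.79, whereas 4 hexamerin genes of the fat body had at most 1.36 and 8 antimicrobial peptide genes at most 3.72. The hexamerin genes are those that the study listed as differing between landscapes, not the whole family. In 7 individuals, all from ÅL, the trimmed mean (TMM) scaling factor was below 0.6 (0.401 to 0.590), and their 10 most abundant genes took 25.4 to 43.1% of the counts (median 32.4%), against 19.8 to 48.9% (median 27.2%) in the other 42 ÅL individuals. In 8 individuals more than 25 of 50 sex genes lay on the side of the other sex. An ÖL male had 46 such genes and an SA female 44, and the others had 27 to 31. The 50 genes were those outside the stable set with the smallest p in the comparison of the sexes below. They come from these same individuals and are no independent markers of sex. Counts of differing genes are given with and without the individuals with a low TMM factor, as are some single genes. The 8 with such sex genes were left out only for the number of genes that differ between the sexes. The normalized counts used below are the authors' counts divided by library size and TMM factor.

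The SD of the stable genes ran from 0.229 to 0.386 with a median of 0.351, whereas the median of all 1929 genes was 0.585. A distance of 1 SD corresponded to 1.17-fold at the lower end of this range and to 1.31-fold at the upper end. For the median member, 91.1% of individuals lay within 1.5-fold of the gene's geometric mean and 99.4% within 2-fold. In 55 of the 200 genes every individual lay within 2-fold, against 2 of the other 1729 genes. No member had a count of 0 in any individual, and the median count per individual of a member lay between 76.5 and 3284.

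**Figure D1:**
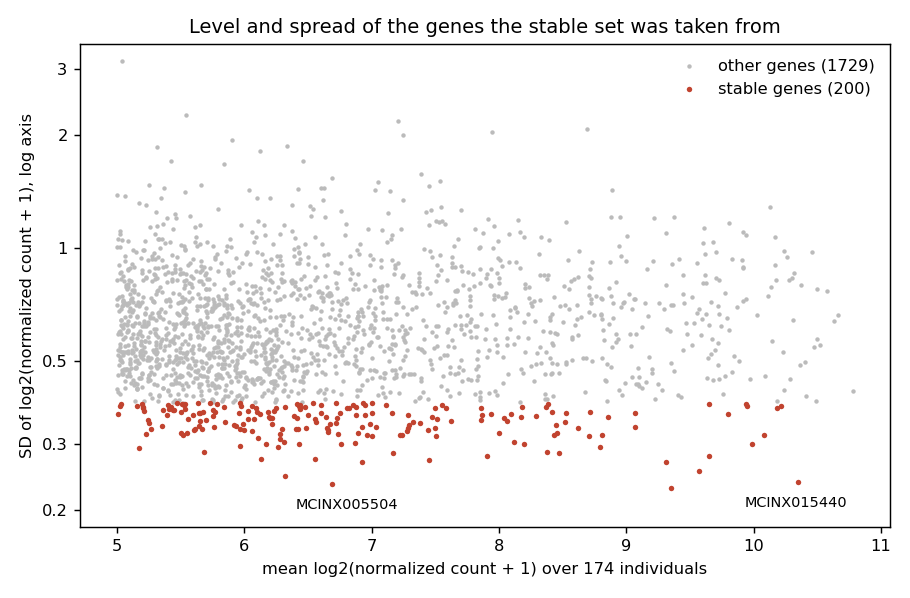
Mean (x axis) and SD (y axis, log scale) of log2(normalized count + 1) over 174 individuals, 1 point per gene. The 200 stable genes (red) reach down to an SD of 0.229 and occur over the whole range of means, and the 1729 other genes (grey) lie above 0.386 by the choice itself.

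Of the 10 smallest SDs, 9 belonged to genes without a name in the tables at hand. MCINX005504 ranged from 49 to 143 with a median of 104 normalized counts, and MCINX006127 from 48.1 to 121 with a median of 78.8. MCINX015440, with a median of 1276 (886 to 2385), and MCINX006915, with a median of 740.2 (436 to 1245), were far more abundant. Low and high expression were thus both found among the most stable genes. The remaining 5, MCINX004463, MCINX015507, MCINX003771, MCINX012370 and MCINX002842, had medians of 121, 641, 174, 67.8 and 94.5.

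The limit of the set lay in a continuous run of values. The last members, MCINX014622, MCINX006562 and MCINX015138, all had an SD of 0.386, and the first genes beyond them, MCINX003066, MCINX000357 and MCINX000756, had 0.386, 0.387 and 0.387. Membership depended on the processing to different degrees. A pseudocount of 0.5 kept 198 members, the SD within groups of population and sex kept 167, counts thinned to a total of 2000000 kept 170 and the balanced set of 60 individuals kept 157. CPM values without the TMM factor, an alternative added after seeing the data, kept 86. Under all 10 alternatives together, 49 genes were retained, among them 9 of the 10 with the smallest SD (MCINX012370 was the exception) and 5 of the 15 with a name.

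The stable genes had slightly higher levels than the other genes they were chosen from, with a median of the mean log2 value of 6.55 (5.01 to 10.4) against 6.20 in the other 1729. Counting error alone accounted for a median of 9.86% of the variance of a member and for up to 35.1%, against a median of 3.89% in the other genes. Population accounted for a median of 5.51% of a member's sum of squares and sex for 1.83%, against 10.4% and 2.24% in the other genes. The largest shares among the members were 37.7% for population and 26% for sex.

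Names were available for 15 members, from the study's lists of Wnt, Notch and hedgehog genes and of genes that differ between landscapes. The pathway lists were made by sequence similarity to Drosophila, without regard to expression, and 36 of their genes passed the filters on the mean. Of these, 13 (36.1%) were stable, against 10.4% of all 1929 genes. By list they were 9 of 23 Wnt genes, 7 of 17 hedgehog genes and 0 of 4 Notch genes. Some genes were in more than 1 list, and the 4 Notch genes are too few to read a share from. The median SD of the 36 genes was 0.412, against 0.585 for all 1929. MCINX001786 and MCINX009024 have names only because the study listed them as differing between landscapes in these same individuals, and are no independent sample of the stable genes.

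MCINX009876, of the Wnt list, lay at the stable end. It is described as a Cdc42 homolog and matched to Rac1, which drives actin assembly at the cell edge. It had 145 ± 29.99 normalized counts (SD, n = 174; 94.4 to 249) and rank 14 of 1929 by SD. Its median was highest in SA (156) and lowest in UP (127).

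MCINX004177, the beta-catenin gene (armadillo in Drosophila), which both carries the Wnt signal to the nucleus and anchors cell junctions, ranked 24. It had 72.5 ± 15.5 normalized counts (SD, n = 174), with population medians between 67.7 in ÖL and 73.0 in SA. MCINX015687, matched to supernumerary limbs, the subunit that in Drosophila recognises beta-catenin and the hedgehog transcription factor for degradation, had a median of 43.6 (14.6 to 76.4). MCINX001252, the beta subunit of casein kinase II, a regulatory subunit, had a median of 83.6 (46.2 to 177). Both had an SD of 0.37, against 0.30 for MCINX004177. MCINX003242 was matched to skpA, a core subunit of the same ubiquitin ligase, but is described as a cytochrome b-561 protein, so its identity is uncertain. It had a median of 455 (196 to 787).

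The remaining named members are mostly described as protein kinases, whose shared kinase domain makes the match to a single fly gene uncertain. MCINX005695 and MCINX012995 were both matched to fused, the kinase that transmits the hedgehog signal in Drosophila, and had medians of 176 (65.2 to 294) and 112 (54.2 to 225). MCINX012995 is described as ST17A. MCINX007405, described as a kinase 38-like protein, had a median of 102 (43.1 to 153). The most abundant of them was MCINX013002, described as protein kinase C theta and matched to a catalytic subunit of the cAMP-dependent protein kinase, with a median of 841 (335 to 1436). MCINX000424 (calcium/calmodulin-dependent kinase) had a median of 129 (69.1 to 244) and MCINX013877 (p21-activated kinase 3, a target of Cdc42 and Rac) one of 42.6 (21.96 to 123). In the hedgehog list MCINX013877 was matched to fused as well. MCINX006190, matched to basket, the Jun kinase of Drosophila, but described as a membrane protein, had a median of 86.0 (43.6 to 179). MCINX009024 (CG3541) had a median of 332 and MCINX001786 (MEP-1, a zinc finger protein) one of 63.1.

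The genes described as ribosomal proteins, elongation factors or troponin C did not belong to the stable set. Of 22 genes described as ribosomal proteins, many of them mitochondrial, 16 passed the filters on the mean and 0 were stable, with SDs from 0.449 to 0.949. Over all 1929 genes 10.4% were stable, so 0 of 16 is not far from that share. The 4 described tubulin genes and 3 ATP synthase genes did not pass the filters, so their SDs were not ranked. Both elongation factor genes (SDs of 0.556 and 0.666) and both troponin C genes (0.649 and 0.667) were also outside it, at ranks of 870 or more. Among the ribosomal protein genes the most stable was the mitochondrial ribosomal protein gene MCINX003294, at rank 410. Many of these descriptions come from the study's list of genes that differ between landscapes, so they are not a fair sample of their classes.

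Fragmented and continuous landscapes were compared in the 15 individuals with the largest totals of each population. Of the 200 stable genes, 25 differed (12.5%), whereas 25.7% of all 8225 genes tested and 31.3% of the 1929 genes differed (edgeR quasi-likelihood F-test, adjusted p below 0.05). In the fragmented landscapes 18 were lower, where 11% of all genes were lower, and 7 were higher, where 14.7% of all genes were higher. The differences of the 25 genes were 1.14- to 1.30-fold with a median of 1.22-fold, and no member exceeded 0.38 on the log2 scale in either direction. Fewer cells of a type and less RNA per cell cannot be told apart in these bulk samples.

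The largest decrease in fragmented landscapes was that of MCINX005695, a gene matched to fused. Its normalized counts in the balanced set were 65.2 to 212 (median 141) for ÅL, 145 to 209 (median 176) for UP, 168 to 294 (median 214) for SA and 153 to 274 (median 186) for ÖL. The log2 fold change was -0.38 ± 0.08 (SE; adjusted p = 0.00031, n = 30 against 30 butterflies). This SE and p rest on the spread of butterflies within populations, not on replicate landscapes. ÅL was lowest and SA highest, with overlapping ranges.

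The next decreases were those of MCINX013002 (-0.35 ± 0.09, adjusted p = 0.0028) and MCINX006967, a gene with no name (-0.31 ± 0.09, adjusted p = 0.0069). MCINX013002 had medians of 584 (ÅL), 786 (UP), 879 (SA) and 931 (ÖL), and was highest in ÖL. MCINX006967 had medians of 1036, 1218, 1610 and 1265 in the same order. Of the named genes, MCINX009024 (-0.31), MCINX001786 (-0.30), MCINX007405 (-0.29) and MCINX015687 (-0.24) also fell. Of the 13 stable pathway genes 4 differed (30.8%), against 25.7% of all genes tested and 31.3% of the 1929 genes. These 4 (MCINX005695, MCINX013002, MCINX007405 and MCINX015687) were lower in fragmented landscapes and 0 were higher. Most of the stable genes that differed were lower, 18 of 25. Among all 36 pathway genes 7 were lower and 6 higher.

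In all 18 genes that were lower in fragmented landscapes ÅL had the lowest mean log2 value in the balanced set, and in 15 of them SA had the highest. By the fitted estimates UP lay 0.03 below ÅL in MCINX001786. In 14 of the 18 genes both fragmented populations had lower means than both continuous ones. Without the 4 individuals of the balanced set that had a low TMM factor, 16 of the 18 still passed the threshold. These individuals had 65.2 to 124 normalized counts of MCINX005695, against 88.1 to 212 in the other 11 from ÅL, and its log2 fold change without them was -0.32 (adjusted p = 0.0012). Among the individuals outside the balanced set 18 of the 18 kept their sign and 4 passed.

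Of the 7 genes that were higher in fragmented landscapes, the 3 with the largest differences were MCINX013223 (0.33 ± 0.09, adjusted p = 0.0060), MCINX013663 (0.32 ± 0.09, adjusted p = 0.0082) and MCINX004690 (0.31 ± 0.11, adjusted p = 0.029). MCINX004690 ranged from 733 to 3176 (median 1176) in ÅL, and from 736 to 1060 (median 899) in UP, the other fragmented population. The continuous populations had 845 to 1149 (SA, median 960) and 751 to 1218 (ÖL, median 980). Its values above 1218 were all in ÅL, and its UP median lay below those of both continuous populations. In 4 of the 7 genes both fragmented populations had higher mean log2 values than both continuous ones. In 6 of the 7 ÅL had the highest mean.

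The individuals with a low TMM factor held the highest values of MCINX004690 and MCINX013223. In the 4 such individuals of the balanced set MCINX004690 had 2315 to 3176 normalized counts, against 733 to 1767 in the other 11 from ÅL, and MCINX013223 had 77.8 to 97.4 against 35.2 to 47.1. For MCINX013663 the values were 1902 to 2745 against 1018 to 2240, which overlap. Without these individuals 0 of the 7 genes passed the threshold, and the log2 fold change of MCINX004690 was 0.06 (adjusted p = 0.64), that of MCINX013223 0.12 (adjusted p = 0.19) and that of MCINX013663 0.16 (adjusted p = 0.15). All 7 genes kept their sign. With all 174 individuals 5 of the 7 passed and 7 kept their sign, with a median log2 fold change of 0.15 against 0.29 in the balanced set. Among the individuals outside the balanced set 5 of the 7 kept their sign and 0 passed. What set the low factors was not tested.

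**Figure D2:**
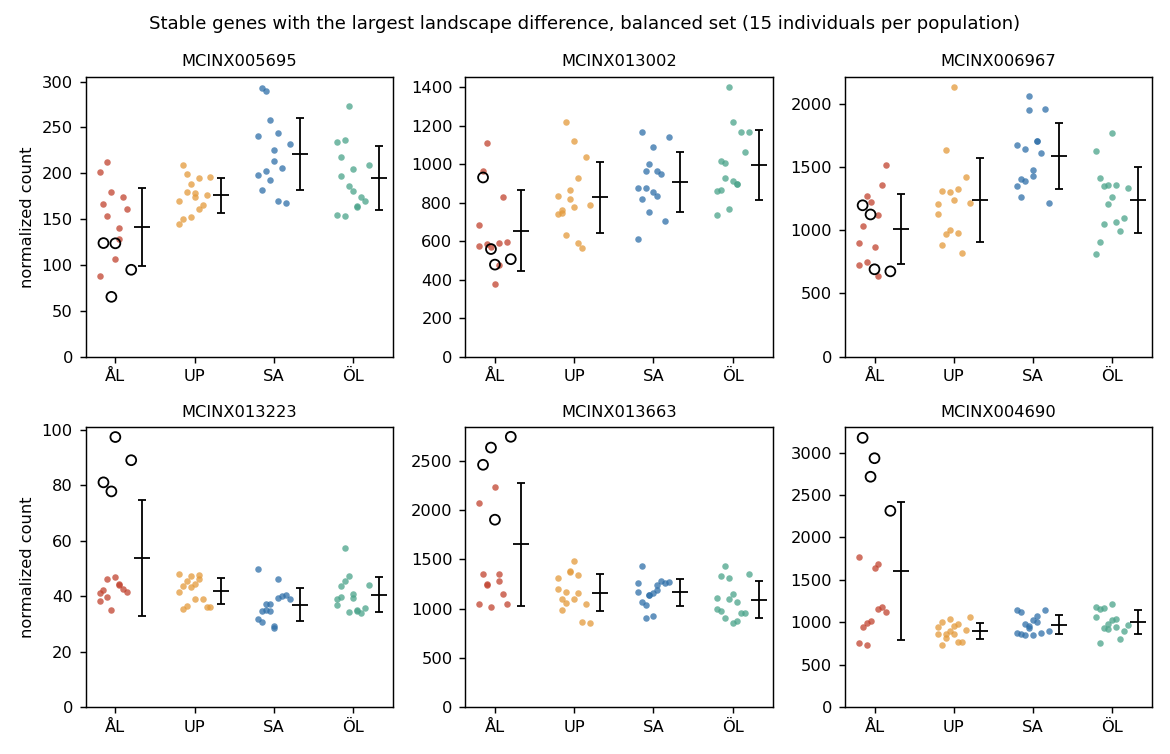
Normalized counts (y axis) of the 3 stable genes with the largest decrease (upper row) and the 3 with the largest increase (lower row) in fragmented landscapes, in the 15 individuals with the largest totals of each population. Points are individuals, open circles are the 4 ÅL individuals with a TMM factor below 0.6, and bars are mean ± SD. In the upper genes ÅL has the lowest mean and the populations overlap, and the open circles of MCINX005695 lie at 65.2 to 124. In the lower genes the open circles hold the highest ÅL values of MCINX004690 (2315 to 3176) and MCINX013223 (77.8 to 97.4).

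Any difference among the 4 population means was found in 58 stable genes (29%), against 46.9% of all 8225 genes tested. The distance between the highest and the lowest population mean had a median of 0.27 on the log2 scale (1.21-fold) over the 200 genes and reached 0.69 (1.62-fold). In the other 1729 genes the median was 0.63. ÅL had the lowest mean in 92 members (46%; 35.6% of the other genes) and SA the highest in 78 (39%; 29.7%). Without the individuals with a low TMM factor 29 genes passed the threshold, and 28 of them were among the 58. This removed 4 of the 60 butterflies.

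Of the 10 most stable genes, 2 differed among populations. MCINX015440 had medians in the balanced set of 1445 (ÅL), 1320 (UP), 1194 (SA) and 1326 (ÖL) (adjusted p = 0.026), and it was also higher in fragmented landscapes (0.20 ± 0.07, adjusted p = 0.032). MCINX006915 was higher in ÅL than in the other populations by 0.24 to 0.32 (adjusted p = 0.048). Without the individuals with a low factor the adjusted p among populations was 0.307 and 0.575, and that of MCINX015440 between landscapes was 0.158.

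Males and females were compared in all 174 individuals with population as a covariate. The sexes differed in 69 stable genes (34.5%), against 28.0% of all 8976 genes tested and 43.1% of the 1929 genes. Males were higher in 33 genes (13.6% of all genes were higher in males) and females in 36 (14.4%). The differences were small, 1.09- to 1.26-fold with a median of 1.14-fold. When the 8 butterflies whose sex genes resembled the opposite sex were omitted, 74 genes differed, and without those with a low TMM factor 70, of which 64 were among the 69. In 57 of the 69 genes the difference of the means had the same sign in all 4 populations.

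The genes with the largest female excess were MCINX002337, MCINX014026 and MCINX004457, none of which has a name. MCINX002337 ranged from 77.9 to 208 (median 136) in 77 females and from 65.7 to 166 (median 111) in 97 males, a log2 difference between males and females of -0.33 ± 0.04 (SE; adjusted p = 5.0e-11). MCINX014026 had medians of 180 and 137 (-0.33 ± 0.04) and MCINX004457 of 388 and 290.2 (-0.29 ± 0.05). Females exceeded males in the means of all 4 populations for each of the 3 genes, and the ranges overlapped in every population.

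The largest male excess was that of MCINX012995, another gene matched to fused. It had 54.2 to 192 normalized counts (median 100.3) in females and 62.5 to 225 (median 119) in males. The log2 difference was 0.32 ± 0.05 (SE, adjusted p = 1.7e-07). By population, its difference was 0.44 (ÅL), 0.04 (UP), 0.24 (SA) and 0.35 (ÖL). MCINX000226 followed with medians of 490 and 596 (0.31 ± 0.05) and MCINX009330, the gene with rank 11 by SD, with 724 and 847 (0.25 ± 0.04). The kinase gene of the landscape comparison that was matched to fused, MCINX005695, had nearly equal medians of 178 and 175 in the sexes (-0.01 ± 0.04).

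Among the named genes, males had higher levels of the GTPase gene MCINX009876 (0.16 ± 0.04, adjusted p = 0.0024), of MCINX006190 (0.22 ± 0.06) and of MCINX013002 (0.16 ± 0.05). Females had higher levels of MCINX001252 (-0.17 ± 0.06) and MCINX001786 (-0.12 ± 0.05). Without the individuals with a low TMM factor MCINX001786 did not pass the threshold (adjusted p = 0.0595 by edgeR). Of the 13 stable pathway genes 6 differed between the sexes (46.2%), against 28.0% of all genes tested and 43.1% of the 1929 genes. Of these 6 genes 5 were higher in males and 1 in females, and among all 36 pathway genes 8 and 2. Among the 10 most stable genes MCINX015507 was higher in males (0.21 ± 0.04, adjusted p = 2.6e-06), with 693 in males and 596 in females.

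**Figure D3:**
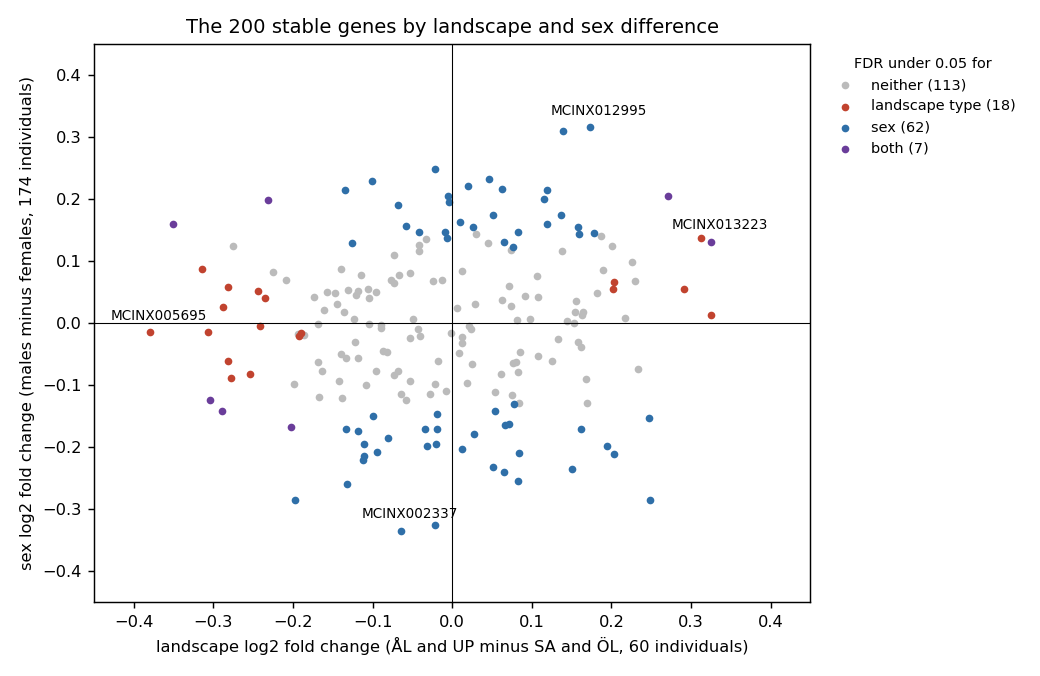
Log2 fold change between landscape types (x axis, fragmented minus continuous, 60 individuals) against that between the sexes (y axis, males minus females, 174 individuals), 1 point per stable gene and coloured by the comparison with an adjusted p below 0.05. The points run from -0.38 to 0.33 on the x axis and from -0.33 to 0.32 on the y axis, and 7 genes passed in both comparisons.

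**Figure D4:**
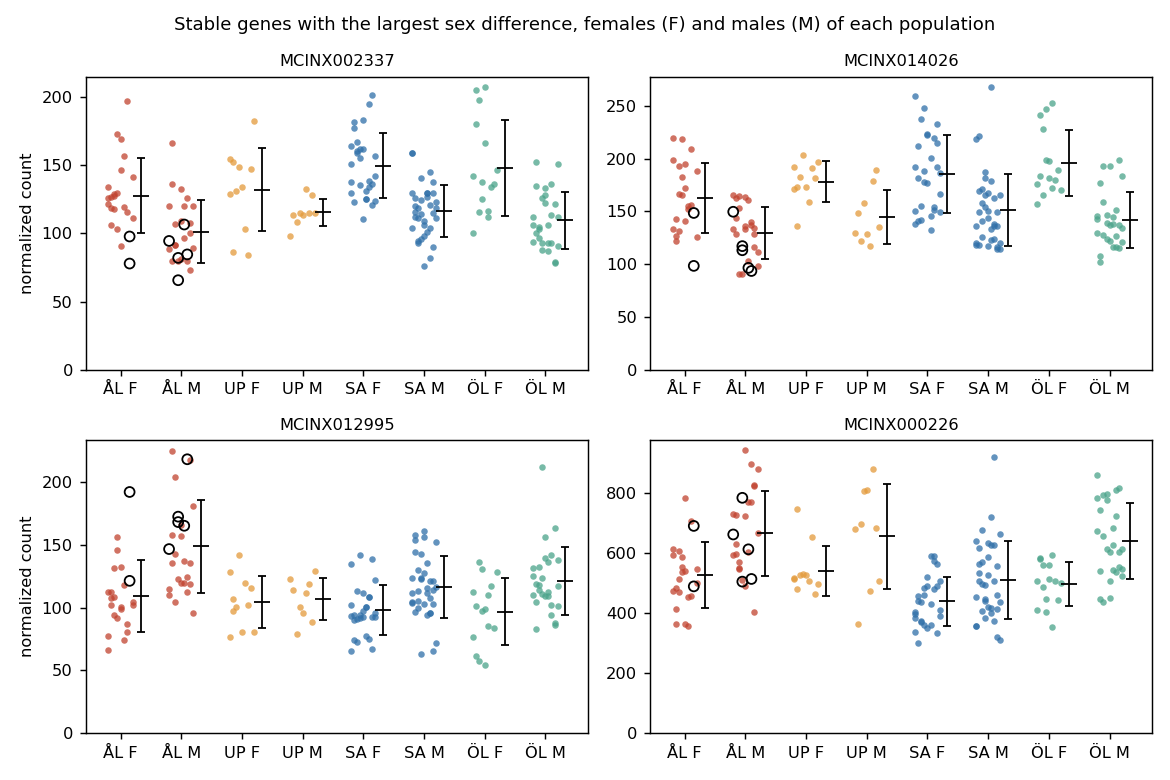
Normalized counts (y axis) of the 2 stable genes with the largest female excess (upper row) and the 2 with the largest male excess (lower row) in females (F) and males (M) of each population. Points are individuals, open circles are the 7 ÅL individuals with a TMM factor below 0.6, and bars are mean ± SD. Females lie above males by their means in all 4 populations for MCINX002337 and MCINX014026, with overlap.

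A sex difference that depends on population was found in 0 stable genes and in 0.702% of all 8976 genes tested (edgeR quasi-likelihood test). An unadjusted p below 0.05 was found in 15 of the 200 stable genes, 257 of the 1929 genes and 972 of all 8976 genes tested. RLE size factors, no filter on low counts and the omission of the individuals with a low TMM factor each also left 0 stable genes past the threshold. The smallest p belonged to MCINX000664 (p = 0.0042 and adjusted p = 0.16 by edgeR). Its medians were 76.5 in females and 59.8 in males from ÅL, whereas they were 62.7 and 72.0 in UP, 57.3 and 62.3 in SA, and 63.5 and 66.0 in ÖL. In 90 of the 200 genes no difference by landscape, population or sex passed the threshold. The matching number over all genes is not given here, and the choice by a small SD limits such differences.

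The stable genes were not equally stable in all populations. The median SD was 0.37 in ÅL, 0.32 in SA, 0.31 in ÖL and 0.28 in UP, and ÅL had the largest SD in 130 of the 200 genes (65.0%). Over all 1929 genes the medians had the same order, at 0.63, 0.50, 0.49 and 0.45, and ÅL had the largest SD in 66.0% of the other 1729 genes. Without the 7 individuals with a low factor the median in ÅL was 0.35, and ÅL had the largest SD in 104 genes. Males had the larger SD in 149 genes (74.5%, against 69.9% of the other genes), with medians of 0.36 in males and 0.32 in females. The groups differ in size, and these orders were not tested.

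For each butterfly the root mean square deviation of its 200 stable genes from the means of its population and sex was taken as its spread. The spread ranged from 0.175 to 0.565 with a median of 0.297. The mean was 0.360 ± 0.083 in ÅL (SD, n = 49), 0.305 ± 0.052 in SA (n = 63), 0.289 ± 0.042 in ÖL (n = 42) and 0.271 ± 0.042 in UP (n = 20), with overlapping ranges. Of the 12 butterflies with the largest spread, 9 were from ÅL and 5 had a low TMM factor. The 7 with a low factor had 0.388 to 0.565, against 0.242 to 0.517 in the other 42 from ÅL. The mean of an individual's genes took 8.37% of the squared deviations.

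The spread was lower in butterflies with more counts, with Pearson's r = -0.26 and Spearman's coefficient = -0.34 against log2 total count (n = 174). These values are descriptions with no test, since the spread is made of the same values that chose the genes, and counting error falls with depth by itself. From the 44 individuals with the smallest totals to the 44 with the largest, the median SD expected from counting alone went from 0.146 to 0.069, and the median SD of the stable genes from 0.351 to 0.316. Within populations r was -0.42 (SA), -0.37 (ÖL), -0.46 (UP) and -0.11 (ÅL). Without the 2 individuals farthest from the median total, r was -0.25 for all, -0.38 for SA, -0.33 for ÖL, 0.20 for UP and -0.06 for ÅL, so the value of UP rested on those butterflies.

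**Figure D5:**
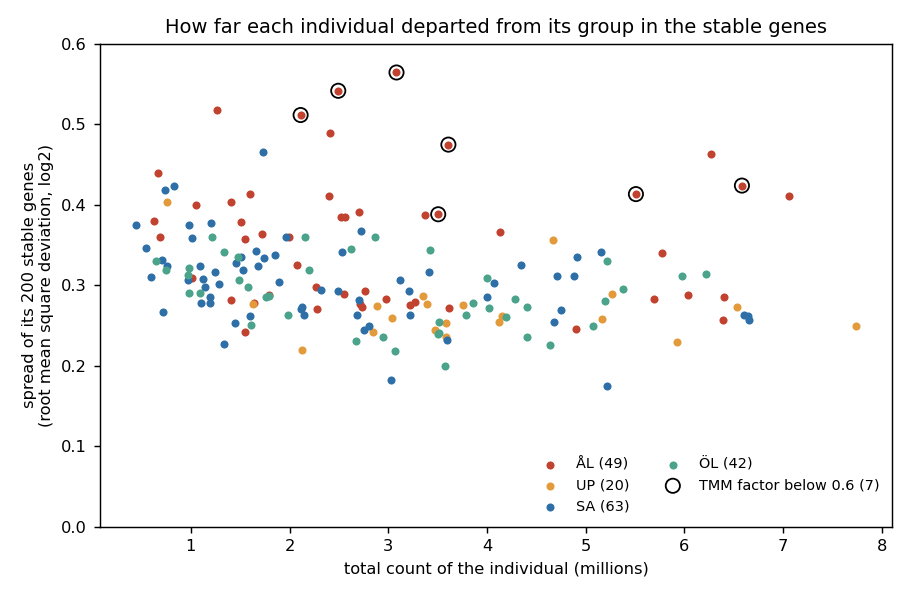
Spread of the 200 stable genes of each butterfly (y axis, root mean square deviation on log2 from the means of its population and sex) against its total count (x axis), coloured by population, with circles around the 7 individuals with a TMM factor below 0.6. The circled butterflies lie between 0.388 and 0.565, above most others.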

How the data were processed

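The authors sequenced 1 polyA-anchored thorax library per individual, trimmed the reads and mapped them with TopHat2 (version 2.0.5 in the submitters' processing notes) to the genomic scaffolds of the species. The tool that counted reads in the 16667 gene models is not given in the sources used here. The deposited raw counts are whole numbers. For the deposited signal, called normalized counts here, the authors divided each count by library size and TMM factor. They were a constant multiple of the counts within 0.020%. All 174 columns were matched to individuals by title.

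The members and the gene lists were chosen with earlier results of these data known. Genes named are the 10 smallest SDs, 3 genes on each side of the limit, the 3 largest called differences per direction for landscape and sex, the smallest interaction p and every member with a name. Genes of a count of 5 or fewer were named after their values were seen.

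Counts were tested with edgeR 4.0.16 (R 4.3.3) by the quasi-likelihood F-test after TMM and filterByExpr (minimum count 10), with Benjamini-Hochberg adjustment over all genes tested and a threshold of 0.05. Landscape types and populations used 1 mean per population in the 60 individuals of the balanced set, and sex and its interaction used all 174. Every p-value with an adjustment comes from these fits, and standard errors are the fold change divided by the root of F. The permutation test planned for spread and total count is not given, since the choice of the genes used the same values. The other steps ran in Python 3.11.15 (scipy 1.17.1). The tests were also run on simulated counts, but the changes put into them were mostly larger than the differences of the stable genes. The result is not given here and lends these differences no weight. Alternatives were RLE size factors, no filter, DESeq2 1.42.0, the likelihood ratio test, sex or log2 total count as covariates, other sets of individuals, and other ways of choosing the genes. The omission of individuals with a TMM factor below 0.6 or above its inverse, CPM without TMM and SA and ÖL alone were added after seeing the data. No library was found deposited more than once among 4180 pairs of individuals of the same population (chi-square per degree of freedom of 11.2 or more). Pairs from different populations were not compared. The gene models had 0 matches in the RefSeq table, so no sequence or position is given. 1 of the genes named by the rule is not reported here.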

Additional observations from a re-analysis of the deposited data

Results flagged for a closer look

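The spread of the stable genes reached 0.357 in 1 UP male, while the other 8 UP males lay between 0.245 and 0.287, so that the gap took 62.5% of the range of the 9 males. This male is one of the 8 individuals whose sex genes lay mostly on the side of the other sex (29 of 50), and the spread is measured from the means of population and sex. The part of this in its spread was not tested. Only UP males form a group small enough for this comparison. It was made for 38 values, the spread and the levels of 37 named genes, and chance alone marks about 1 in 20 such groups. None of the 37 gene levels in UP males held a value as isolated.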

How the results depend on the processing

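Among the alternatives for landscape type, the number of stable genes that differed was 41 with the likelihood ratio test and 65 with all 174 individuals, against 25, and 17 to 33 with the others. Among populations it was 117 with all 174 individuals and 29 without the individuals with a low TMM factor, against 58. Between the sexes it was 12 in the balanced set, 7 in ÅL alone, 0 in UP alone, 27 in SA alone and 24 in ÖL alone, against 69. Fewer individuals were tested in each of these. In males and females 42 and 31 genes were higher with RLE size factors, 46 and 34 with DESeq2 and 22 and 38 without a filter, against 33 and 36. For the alternatives, here and above, the shares over all genes tested are not given. These numbers therefore cannot be held against the other genes. The stable set kept 86 members without TMM factors and 140 to 200 under the other 9 alternatives. The relation of spread and total count had r = -0.11 in ÅL alone and -0.46 in UP alone, against -0.26, and -0.37 without the individuals with a low TMM factor. MCINX013663 turned to -0.0284 between landscape types in the individuals outside the balanced set, where the cause was not tested. RLE size factors and DESeq2 moved the median log2 fold change over all genes by at most 0.012. No paired analysis was possible because the individuals of different populations and sexes are different animals, numbered here only by their order, and the labels pair none of them.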

Other observations

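After removal of the means of population and sex, the median correlation over 19900 pairs of stable genes across the 174 individuals was 0.09, against 0.02 in the other 1729 genes. Its median size without regard to sign was 0.12 against 0.13, and 0.427% of the pairs exceeded 0.5 in size, against 1.75% of the pairs of the other genes. All pairs share the same libraries and their scaling, so these values are descriptions. The closest pairs were MCINX009231 with MCINX004457 (r = 0.71), MCINX013663 with MCINX004690 (r = 0.70) and MCINX009231 with MCINX004690 (r = 0.68). The first principal component of the scaled values took 10.9% of the variance in the stable genes and 14.4% in the others.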
